A study of Homo sapiens with 24 samples.

Results

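The human potassium channel genes are the 84 of the 29639 genes in the deposited tables whose symbol is made of KCN, 1 or more letters and a number. All 84 were present in each table. By the role of the encoded protein they comprise 26 pore-forming voltage-gated subunits, 9 electrically silent voltage-gated subunits, 8 calcium- or sodium-activated channels, 14 inward rectifiers, 12 K2P leak channels and 15 accessory subunits. The study grew Rh30, an alveolar rhabdomyosarcoma line, and RD, an embryonal one, for 5 days in DMSO as solvent control, in SGI-110 at 0.5 µM, in dasatinib, or in both agents. The labels do not clearly give the dose of dasatinib. SGI-110 (guadecitabine) releases the DNA methyltransferase inhibitor decitabine, and dasatinib inhibits SRC and ABL family kinases. Poly(A) RNA was sequenced from 3 libraries in each of 8 groups, 24 in all. The labels call these biological replicates without saying what separated them, so the p-values measure the spread between these libraries.

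Potassium channels let potassium leave the cell and so hold the membrane potential negative. Pore-forming voltage-gated subunits open on depolarisation, and silent subunits form no channel alone but alter the voltage-gated channels they join. Inward rectifiers and K2P channels set the resting potential, calcium- and sodium-activated channels couple it to ions inside the cell, and accessory subunits change gating or transport to the membrane. In the skeletal muscle lineage, whose genes rhabdomyosarcoma cells express, KCNH1 and KCNJ2 hyperpolarise human myoblasts before they fuse.

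The deposited comparisons give no fold change, no level per treatment and no value per library, and the depth of each library is unknown. Multiplying each deposited Wald statistic by its standard error gave the log2 fold change. A level, the fitted normalised count per library under a treatment, was solved for 83 of the 84 genes from the deposited standard errors and fold changes. A level has no error of its own, and the error of a difference is the standard error (SE) of its log2 fold change, for 3 libraries against 3. The solution took the spread of a gene as shared by the 4 treatments, and this fitted the deposited standard errors. Such an error therefore does not measure the spread of the compared libraries alone. A level under 1 count per library, which is 3 counts over a group, was taken as not measurable, and a fold against such a group is a bound. The solved levels fit groups that make up 12 of the 24 libraries, so all 4 treatments are taken to come from 1 cell line, left unnamed in the tables. In bulk RNA, fewer cells expressing a gene and less RNA per cell cannot be told apart.

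In DMSO, 39 of the 84 genes reached 1 count per library and 16 reached 100. KCNS3, a silent subunit that modifies delayed rectifiers, had the highest level at 4263 counts per library. The sodium-activated channel KCNT1 followed at 2742, the small-conductance calcium-activated channel KCNN3 at 1647 and KCNH1 at 1048. These 4 genes lie at chr2:17877847-18361616, chr9:135702185-135795508, chr1:154697455-154870280 and chr1:210676823-211134180 (GRCh38, GENCODE release 29). Per kilobase of exon the levels in DMSO were 1362 counts for KCNS3, 225 for KCNT1, 121 for KCNN3, 107 for KCNH1 and 59.3 for KCNJ2. Neighbours in this order were not tested against each other. Under 1 count in DMSO were 45 of the 84 genes (53.6%), against 28.1% of all genes.

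**Figure D1:**
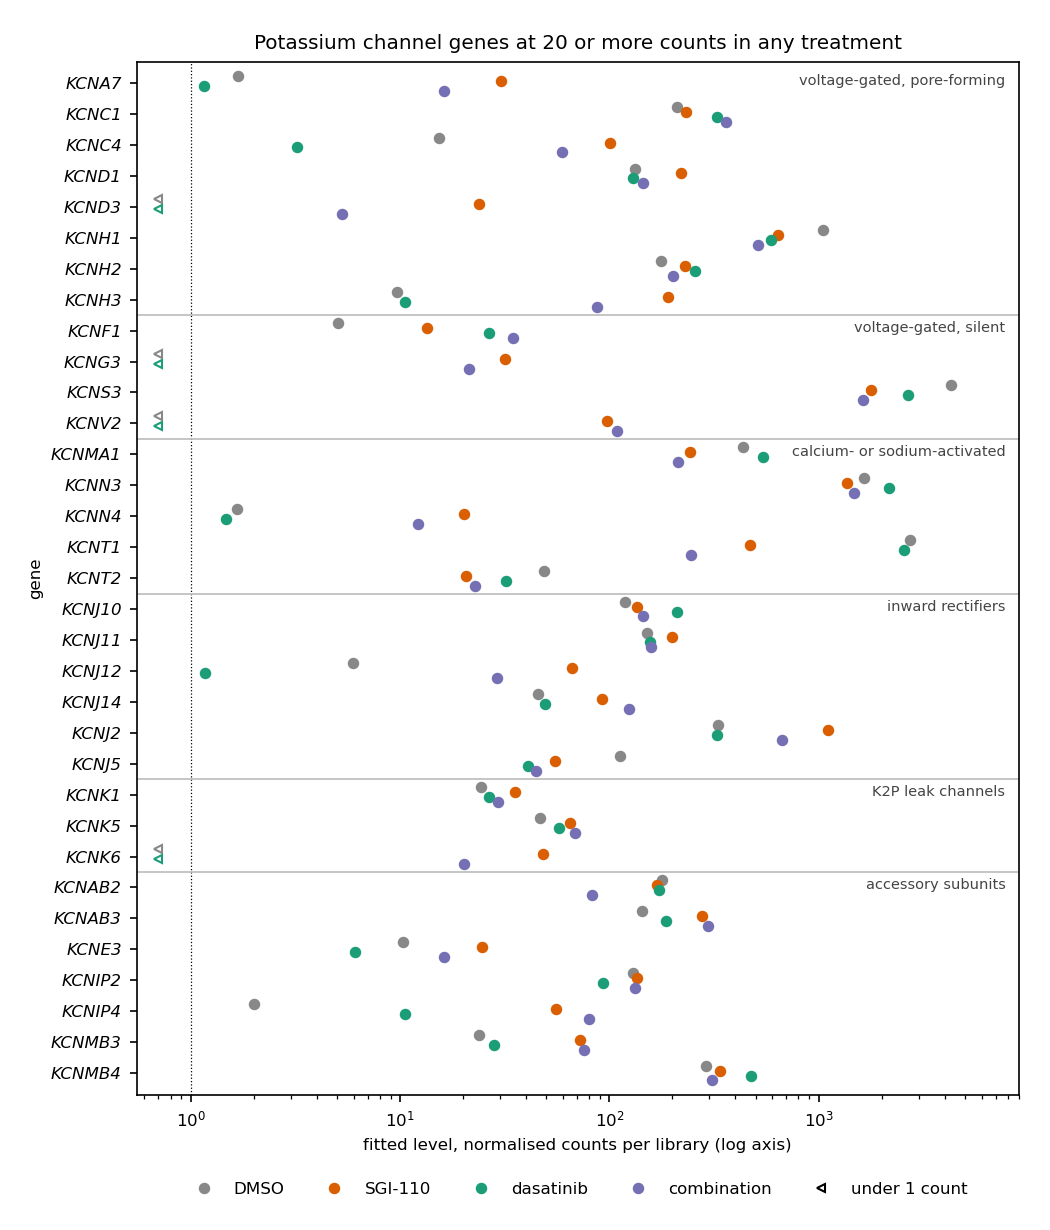
Fitted level in normalised counts per library (log axis) under DMSO, SGI-110, dasatinib and the combination for 33 potassium channel genes at 20 or more counts in any treatment, by group. Each point is 1 treatment of 3 libraries and has no error bar; KCNS3 in DMSO is the highest level, 4263 counts, and KCNH3 lies at 190.5 and 87.5 counts in the 2 treatments with SGI-110 against 9.65 and 10.5 in the others.

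The 12 libraries outside the compared treatments carried a partly different set of channels. Their mean was obtained by removing the 4 levels from the mean normalised count over all 24 libraries in the authors' deposited table. For genes far higher in the compared treatments, such as KCNJ2 and KCNIP4, it is a small remainder of 2 close numbers. Such a mean is a rough value, and its error was not estimated. KCNJ6, a G-protein-gated inward rectifier, averaged 1073 counts in them and was under 1 count in all 4 compared treatments. It shares 320 exon bases with DSCR4 on the same strand, which was not separated here. The silent subunit KCNF1 averaged 356 counts there and reached 34.7 at most in the compared treatments, and KCNG1, another silent subunit, averaged 91.3 and reached 2.24. Other channels were higher in the compared treatments. KCNJ2 averaged 5.13 counts in the other libraries and was at 328 or more in every compared treatment. KCNT1 averaged 51.9 there against 244 to 2742, and KCNJ10, the main inward rectifier of glia, 6.56 against 118 to 210.0. KCNIP4, a calcium-binding accessory subunit, averaged 0.482 there against 2.01 to 79.5. Of 49 genes at 10 counts or more on either side, 10 (20.4%) were at least 10 times higher in the other libraries and 4 (8.16%) at least 10 times higher in the compared ones. Over 18071 genes these shares were 4.89% and 4.27%. No test was possible, because the treatments of the other libraries are pooled in this mean.

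**Figure D2:**
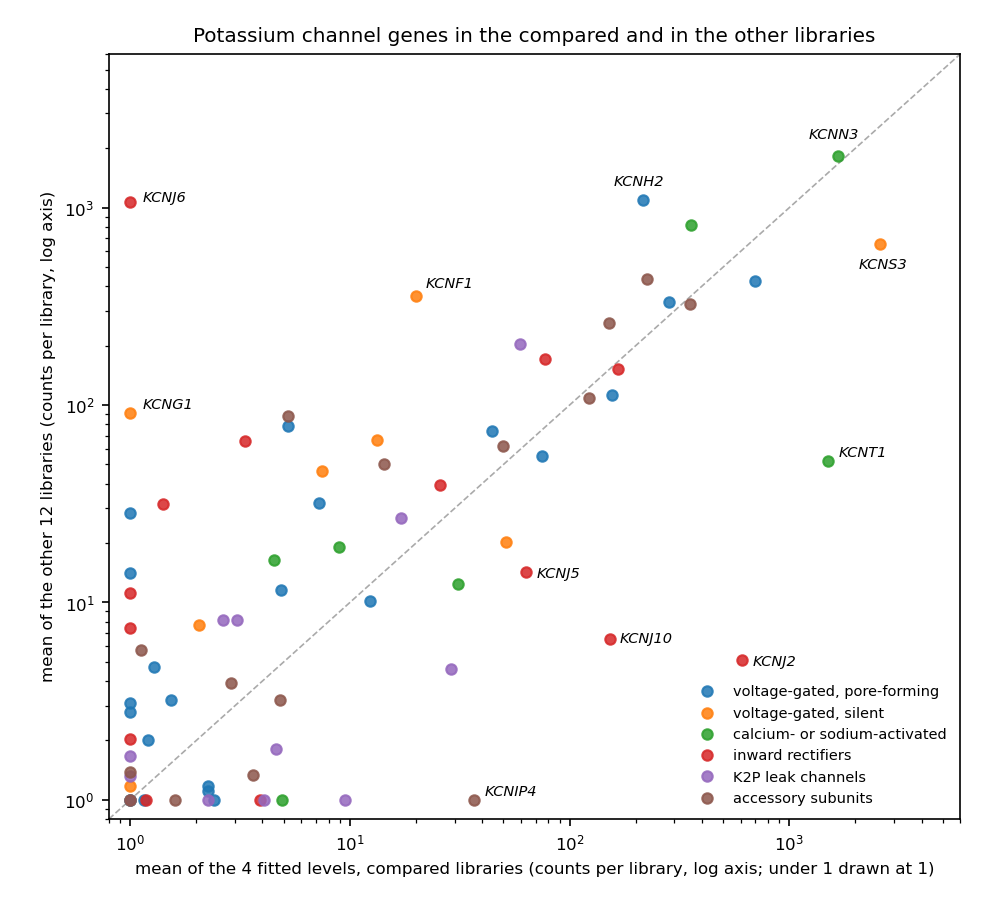
Mean of the 4 compared levels (horizontal, log axis) against the mean of the other 12 libraries (vertical, log axis), in normalised counts per library, for 79 genes with a solved level, coloured by group. The dashed line marks equal values. KCNJ6, with 1073 counts in the other libraries, lies far above it and KCNJ2, with 5.13 as a rough value, far below.

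SGI-110 raised many more potassium channel genes than it lowered. Against DMSO, 49 passed as higher and 7 as lower (adjusted p under 0.05) of the 81 that the authors' deposited table tests. Over all genes tested, 30.4% rose and 17.1% fell. Among the 39 channel genes measurable in both treatments the median log2 fold change was 0.96, against 0.02 over all genes measurable in both. Among the 25 channel genes whose mean over the libraries was 50 counts or more, 15 rose and 5 fell, beside 34.1% and 33.1% of 13177 genes at that level. The median log2 fold change of those measurable in both was 0.43, against -0.02 over all such genes. The rises took in 16 of 26 pore-forming voltage-gated genes, 7 of 9 silent subunits, 9 of 14 inward rectifiers, 6 of 12 K2P genes and 8 of 15 accessory genes. Among the 8 calcium- or sodium-activated genes 3 rose and 4 fell.

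**Figure D3:**
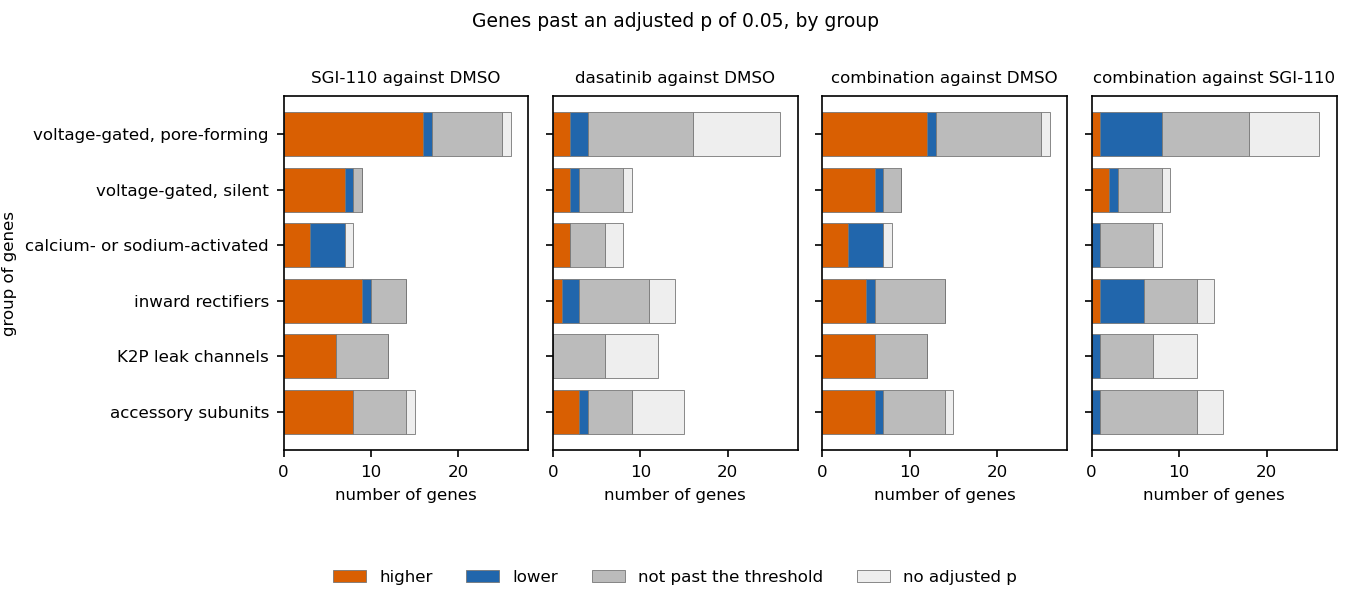
Number of genes in each group that were higher, lower, not past an adjusted p of 0.05 or without an adjusted p in the 4 deposited comparisons. With SGI-110 against DMSO 49 were higher and 7 lower, and with the combination against SGI-110 4 were higher and 16 lower.

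The steepest rises among genes measurable in both treatments were mostly those of voltage-gated channels. KCNH3, a brain channel of the ether-a-go-go family, was at 9.65 counts with DMSO, 190.5 with SGI-110, 10.5 under dasatinib and 87.5 under both agents. Both treatments with SGI-110 were high and both without it low, and the combination lay between SGI-110 and DMSO. Its log2 fold change with SGI-110 was 4.30 ± 0.31 (SE), 19.7-fold (7.11e-42 as adjusted p, from the authors' deposited table). KCNC4, a rapidly inactivating voltage-gated channel, rose from 15.3 to 100.5 counts (2.71 ± 0.27 on the log2 scale) and KCNA7, a voltage-gated channel of muscle, from 1.67 to 30.3 (4.18 ± 0.74). KCNH8, a neuronal channel of the KCNH3 family, rose from 1.97 to 7.66 counts. The largest log2 fold change among genes measurable in both was that of the accessory gene KCNIP4, 4.79 ± 0.65, from 2.01 to 55.4 counts.

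**Figure D4:**
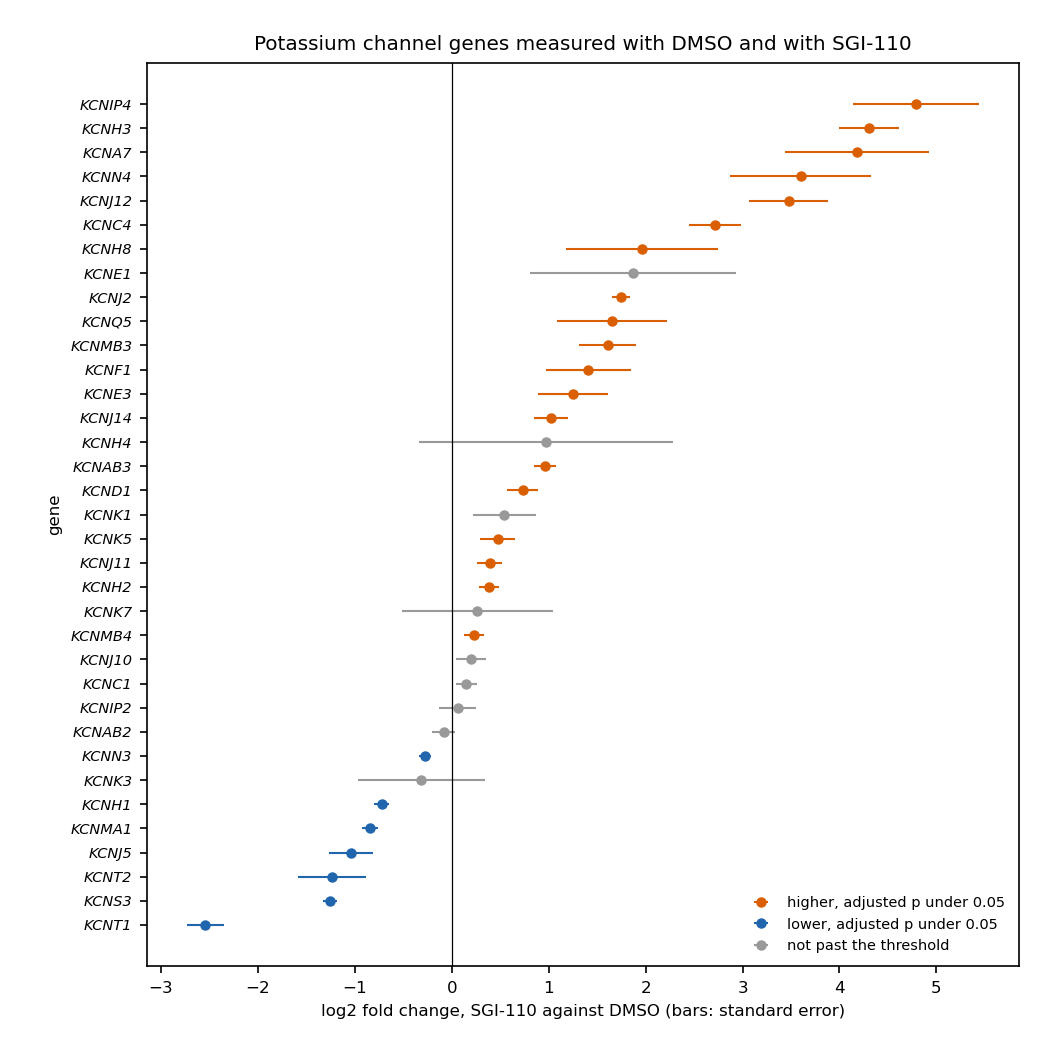
Log2 fold change of SGI-110 against DMSO (horizontal; bars are the standard error, 3 against 3 libraries) for 35 potassium channel genes measurable in both treatments, ordered by size. At an adjusted p under 0.05, 19 were higher and 7 lower; KCNIP4 stands at 4.79 and KCNT1 at -2.54.

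The inward rectifiers that rose with SGI-110 started from very different levels. KCNJ2, the main strong inward rectifier of muscle (chr17:70168673-70180048), was at 330.5 counts with DMSO, 1108 with SGI-110, 328 under dasatinib and 664 under both agents. DMSO and dasatinib alone lay close together, and both treatments with SGI-110 were higher. Its log2 fold change with SGI-110 was 1.75 ± 0.09, 3.35-fold (7.21e-81 as adjusted p, from the authors' deposited table). KCNJ2 shares 185 exon bases with KCNJ2-AS1 on the opposite strand, which rose from 9.28 to 65.0 counts. The library kit keeps strand, but whether the counting used it is not given in the sources used here. KCNJ12, a related strong rectifier, was at 5.96, 66.4, 1.17 and 28.9 counts, a log2 fold change of 3.48 ± 0.41 with SGI-110. Its near-identical copy KCNJ18 can take reads from it, so the value of each is uncertain. KCNJ11, the pore of the ATP-sensitive channel, rose less, from 151 to 198 counts (0.39 ± 0.13 on the log2 scale).

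Many channel genes were measurable only with SGI-110. Of 42 genes under 1 count with DMSO and with an adjusted p, 26 (61.9%) rose, against 42.4% of all such genes. In 23 of the 84 genes (27.4%, against 13.3% of all genes) DMSO and dasatinib were under 1 count and both treatments with SGI-110 were above it. More channel genes started under 1 count with DMSO, 53.6% against 28.1% of all genes. Among genes under 1 count with DMSO the pattern held in 23 of 45, beside 3936 of 8322 over all genes, which are similar shares. In the 22 of these 23 channel genes with a solved level, SGI-110 gave 1.38 to 97.4 counts with a median of 6.31, and 8 reached 10 counts. KCNV2, a silent subunit known from photoreceptors, reached 97.4 counts with SGI-110 and 109 with the combination, at least 97.4-fold and 109-fold higher than DMSO. The K2P channel KCNK6 reached 48.2 and 20.3 counts, the silent subunit KCNG3 31.6 and 21.3, and KCND3, which carries a transient outward current in heart, 23.7 and 5.30. KCNV2 was thus similar in both treatments, and KCND3 was the least retained of these in the combination. KCNS1, a silent subunit of sensory neurons, had the smallest adjusted p of the 23 in the authors' deposited table, 9.48e-15 for SGI-110 and 7.48e-15 for the combination, but no level was solved for it.

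The 250 bases before the RefSeq start (GRCh38.p14) are shown for the 3 genes of this kind with the next smallest adjusted p, KCNV2, KCNG3 and KCNK6, and for KCNJ2, KCNT1 and KCNH1, which were well expressed in DMSO and then rose or fell. RefSeq and GENCODE place some starts differently. The KCNJ2 window lies inside the GENCODE gene given above, and the KCNG3 and KCNH1 windows overlap their GENCODE genes. Capitals mark each CG, the site that DNA methyltransferases methylate. CG reads the same on both strands, no other motif was searched, and 93.9% of the 35116 windows of this length hold at least 1. Read along the gene's strand, the windows are chr9:2717260-2717509 (plus) for KCNV2, chr2:42493983-42494232 (minus) for KCNG3, chr19:38319595-38319844 (plus) for KCNK6, chr17:70169282-70169531 (plus) for KCNJ2, chr9:135701935-135702184 (plus) for KCNT1 and chr1:211134149-211134398 (minus) for KCNH1.
KCNV2: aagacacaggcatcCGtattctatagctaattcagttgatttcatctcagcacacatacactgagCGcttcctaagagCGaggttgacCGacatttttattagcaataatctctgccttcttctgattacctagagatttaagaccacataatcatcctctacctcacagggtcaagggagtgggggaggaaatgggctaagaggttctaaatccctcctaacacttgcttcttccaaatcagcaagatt
KCNG3: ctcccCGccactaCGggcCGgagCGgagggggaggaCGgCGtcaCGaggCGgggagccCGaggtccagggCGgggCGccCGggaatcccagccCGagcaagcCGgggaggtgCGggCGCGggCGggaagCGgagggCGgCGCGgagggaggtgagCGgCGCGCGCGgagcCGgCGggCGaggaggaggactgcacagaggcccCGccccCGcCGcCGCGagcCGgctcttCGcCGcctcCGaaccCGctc
KCNK6: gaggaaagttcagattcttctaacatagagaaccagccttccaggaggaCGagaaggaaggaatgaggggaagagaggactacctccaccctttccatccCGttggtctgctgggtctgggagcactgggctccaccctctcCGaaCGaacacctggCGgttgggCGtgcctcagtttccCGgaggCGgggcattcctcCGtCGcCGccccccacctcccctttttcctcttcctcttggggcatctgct
KCNJ2: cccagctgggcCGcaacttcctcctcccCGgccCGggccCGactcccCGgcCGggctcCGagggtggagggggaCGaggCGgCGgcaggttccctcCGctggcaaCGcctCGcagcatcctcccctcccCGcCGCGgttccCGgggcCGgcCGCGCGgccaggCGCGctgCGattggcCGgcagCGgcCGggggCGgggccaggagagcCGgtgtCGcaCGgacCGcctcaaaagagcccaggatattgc
KCNT1: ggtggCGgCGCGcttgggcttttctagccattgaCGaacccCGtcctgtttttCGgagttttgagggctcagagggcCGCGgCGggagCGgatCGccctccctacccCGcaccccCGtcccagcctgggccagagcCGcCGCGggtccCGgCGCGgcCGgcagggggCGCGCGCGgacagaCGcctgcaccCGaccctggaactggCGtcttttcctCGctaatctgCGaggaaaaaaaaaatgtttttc
KCNH1: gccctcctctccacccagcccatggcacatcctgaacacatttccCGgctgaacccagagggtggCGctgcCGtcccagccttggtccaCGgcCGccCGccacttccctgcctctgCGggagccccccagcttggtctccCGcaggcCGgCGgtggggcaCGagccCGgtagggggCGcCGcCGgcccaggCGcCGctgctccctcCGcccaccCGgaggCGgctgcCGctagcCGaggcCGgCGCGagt
The median window holds 11 CG. KCNV2 holds 4, KCNK6 11 and KCNG3 40, so these 3 genes lie below, at and above that median. KCNJ2, which rose, holds 32, and KCNT1 and KCNH1, which fell, hold 29 and 25. DNA methylation was not measured in these libraries.

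The 7 genes that fell with SGI-110 included the 4 with the highest levels in DMSO. KCNT1 was at 2742 counts with DMSO, 471 with SGI-110, 2559.8 under dasatinib and 244 under both agents. Both treatments without SGI-110 were high and both with it low. The log2 fold change with SGI-110 was -2.54 ± 0.19, 5.82-fold lower (9.23e-38 as adjusted p, from the authors' deposited table). KCNS3 was at 4263, 1786, 2657 and 1626 counts, a log2 fold change of -1.26 ± 0.07 with SGI-110, and every treatment lay below DMSO. KCNT2, the other sodium-activated channel, fell from 48.7 to 20.7 counts (-1.23 ± 0.35 on the log2 scale) and KCNJ5, a G-protein-gated rectifier subunit, from 113 to 54.9 (-1.04 ± 0.23). KCNMA1, the large-conductance calcium-activated channel, fell from 437 to 244 counts (-0.84 ± 0.09), KCNH1 from 1048 to 636 (-0.72 ± 0.08) and KCNN3 from 1647 to 1359.9 (-0.28 ± 0.06). KCNN4, the intermediate-conductance calcium-activated channel, rose from 1.66 to 20.2 counts (3.60 ± 0.72).

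Dasatinib alone moved fewer channel genes. Against DMSO, 10 rose and 6 fell of the 56 that the authors' deposited table tests, and over all genes tested 17.8% rose and 13.2% fell. Of the 25 channel genes at a mean of at least 50 counts, 8 rose and 4 fell, beside 25.6% and 17.1%. The median log2 fold change of the 37 channel genes measurable in both was -0.01, against 0.00 over all genes. Of the 12 K2P genes only 6 had an adjusted p and 4 were measurable in both treatments. None passed the threshold of the deposited Wald test, and 0 had an unadjusted p under 0.05. With so few measurable, a lack of response in the group cannot be read from this. KCNF1 rose from 5.03 to 26.5 counts (2.40 ± 0.42 on the log2 scale, 1.13e-07 as adjusted p, from the authors' deposited table) and KCNIP4 from 2.01 to 10.6 (2.40 ± 0.68). These are low-count genes. Among better expressed ones, KCNJ10 rose from 118 to 210.0 counts (0.83 ± 0.15), KCNMB4, the neuronal beta subunit of the large-conductance channel, from 288 to 475 (0.72 ± 0.10), and KCNC1, a fast delayed rectifier, from 211 to 327 (0.64 ± 0.10). KCNH2, which repolarises the heart, rose from 177 to 255 counts (0.53 ± 0.10), KCNN3 from 1647 to 2164 (0.39 ± 0.06), KCNMA1 from 437 to 539 (0.30 ± 0.08) and KCNAB3, a cytoplasmic beta subunit, from 143 to 186 (0.39 ± 0.12). KCNG4, a silent subunit under 1 count with DMSO, reached 12.6, at least 12.6-fold higher.

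Of the falls with dasatinib, KCNJ5 went from 113 to 41.0 counts (-1.46 ± 0.24 on the log2 scale), KCNH1 from 1048 to 592 (-0.82 ± 0.08) and KCNS3 from 4263 to 2657 (-0.68 ± 0.07). KCNC4 fell from 15.3 to 3.21 counts (-2.25 ± 0.51) and KCNJ12 from 5.96 to 1.17 (-2.35 ± 0.82). These low-count genes had risen with SGI-110, a comparison that shares its DMSO libraries with this one. KCNIP2, an accessory subunit of the cardiac transient outward channel, had a log2 fold change of -0.47 ± 0.19 and 0.0488 as adjusted p, from the authors' deposited table, and it missed the threshold when p-values were adjusted without the authors' filter. KCNT1 and KCNJ2, both moved by SGI-110, had log2 fold changes with dasatinib of -0.10 (95% interval -0.47 to 0.28) and -0.01 (-0.20 to 0.18).

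With both agents, 38 genes rose and 8 fell against DMSO, of the 81 that the authors' deposited table tests, beside 29.8% and 17.6% of all genes tested. At a mean of at least 50 counts 11 rose and 6 fell of 25, beside 35.4% and 32.4%. KCNT1 had its lowest level here, 11.2-fold below DMSO with a log2 fold change of -3.49 ± 0.20. KCNAB2, a cytoplasmic beta subunit, was at 178 counts with DMSO, 168 with SGI-110, 173 under dasatinib and 82.7 under both agents, the one low level (-1.11 ± 0.14 on the log2 scale against DMSO). KCNMB3, a beta subunit of the large-conductance channel, was at 23.7, 72.4, 28.2 and 75.7 counts and rose by 1.68 ± 0.30, but it shares 3403 exon bases with PIK3CA on the opposite strand. KCNK13, a K2P channel known from microglia, reached 13.4 counts, at least 13.4-fold above DMSO.

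Adding dasatinib to SGI-110 lowered more channel genes than it raised. Against SGI-110 alone, 4 genes were higher and 16 lower of the 64 that the authors' deposited table tests, beside 14.2% and 17.0% of all genes tested. The median log2 fold change of the 64 channel genes measurable in both was -0.26, against -0.03 over all genes. At a mean of at least 50 counts 3 were higher and 10 lower of 25, beside 22.3% and 22.4%. KCNH3 fell from 190.5 counts with SGI-110 to 87.5 with both agents (-1.12 ± 0.18 on the log2 scale, 6.01e-09 as adjusted p, from the authors' deposited table) and KCNJ2 from 1108 to 664 (-0.74 ± 0.08). Both nevertheless remained above their DMSO levels. KCND3 fell from 23.7 to 5.30 counts (-2.16 ± 0.47) and KCNK6 from 48.2 to 20.3 (-1.25 ± 0.31). KCNJ12 and KCNC4 fell by 1.20 and 0.76 on the log2 scale, the inward rectifier KCNJ15 fell from 9.87 to 3.52 counts (-1.49 ± 0.51), and KCNG1 and the strong rectifier KCNJ4 fell from 2.24 and 5.04 counts to under 1. KCNV2 did not pass, with a log2 fold change of 0.16 (95% interval -0.25 to 0.57). The 4 higher genes were KCNF1 (1.37 ± 0.27), KCNC1 (0.62 ± 0.10), the inward rectifier KCNJ14 (0.42 ± 0.15) and KCNG4 (1.11 ± 0.45), of which KCNG4 missed the threshold when adjusted without the authors' filter. KCNH3 (14 bases), KCNAB2, KCNIP2, KCNJ14 and KCNJ15 share exon bases with other genes in the tables, which were not separated here.

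The effect of SGI-110 in cells that also received dasatinib was computed from the combination and dasatinib alone, which share no library with SGI-110 against DMSO. By a Wald test (two-sided, adjusted over all 29639 genes), 34 channel genes were higher and 9 lower, beside 26.6% and 16.5% of all genes. At a mean of at least 50 counts 9 were higher and 9 lower of 25, beside 30.5% and 34.3%. With both squared standard errors against DMSO added, a larger error that also counts the DMSO libraries, 18 higher and 7 lower genes passed. Of the 56 genes past the threshold without dasatinib and the 43 past it with dasatinib, 36 passed in both with the same sign, 64.3% of the first list and 83.7% of the second. KCNMB4 and KCNH2 passed in both with opposite signs, but with both squared standard errors added KCNH2 no longer passed with dasatinib (adjusted p by the Wald test 0.056). Their log2 fold changes were 0.23 ± 0.10 and 0.38 ± 0.10 without dasatinib and -0.62 ± 0.10 and -0.35 ± 0.10 with it. In the presence of dasatinib KCNT1 had a log2 fold change of -3.39 ± 0.20. Over the 37 genes measurable in all 4 treatments, the log2 fold changes without and with dasatinib had a Pearson correlation of 0.911 across genes (0.812 over 19187 genes), a description of genes that share libraries.

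For 15 of the 84 genes the dasatinib difference depended on SGI-110. The interaction, the dasatinib difference with SGI-110 minus that without it, was tested by a Wald test (two-sided, adjusted over all 29639 genes), and 4 genes were above 0 and 11 below, beside 6.09% and 8.49% of all genes. Of the 25 channel genes at a mean of at least 50 counts, 3 were above 0 and 10 below, beside 12.6% and 17.8%. KCNMB4, KCNJ10, KCNH2, KCNMA1 and KCNN3 rose with dasatinib alone, while their log2 fold changes on top of SGI-110 were -0.13, 0.08, -0.20, -0.19 and 0.12, none past the threshold. KCNS3 and KCNJ5 fell with dasatinib alone by 0.68 and 1.46 on the log2 scale, and on top of SGI-110 they differed by -0.14 and -0.31, not past the threshold. KCNH1 and KCNC4 fell in both settings, by 0.82 and 2.25 on the log2 scale without SGI-110 and by 0.31 and 0.76 with it. The KCNC4 interaction rests on low counts, 15.3 with DMSO and 3.21 under dasatinib. Its adjusted p by the Wald test was 0.0423, near the threshold, against 7.89e-05 for KCNH1. KCNH3, KCNT1, KCNJ2 and KCNAB2 passed only on top of SGI-110, with interactions of -1.24 ± 0.43, -0.85 ± 0.28, -0.73 ± 0.13 and -0.98 ± 0.18. KCNG4 rose in both settings, and its interaction rests on a DMSO group under 1 count. Of the 37 genes measurable in all 4 treatments, 29 (78.4%) had the same sign of the dasatinib difference without and with SGI-110, against 59.5% of 19187 genes, and the Pearson correlations across genes were 0.609 and 0.320.

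**Figure D5:**
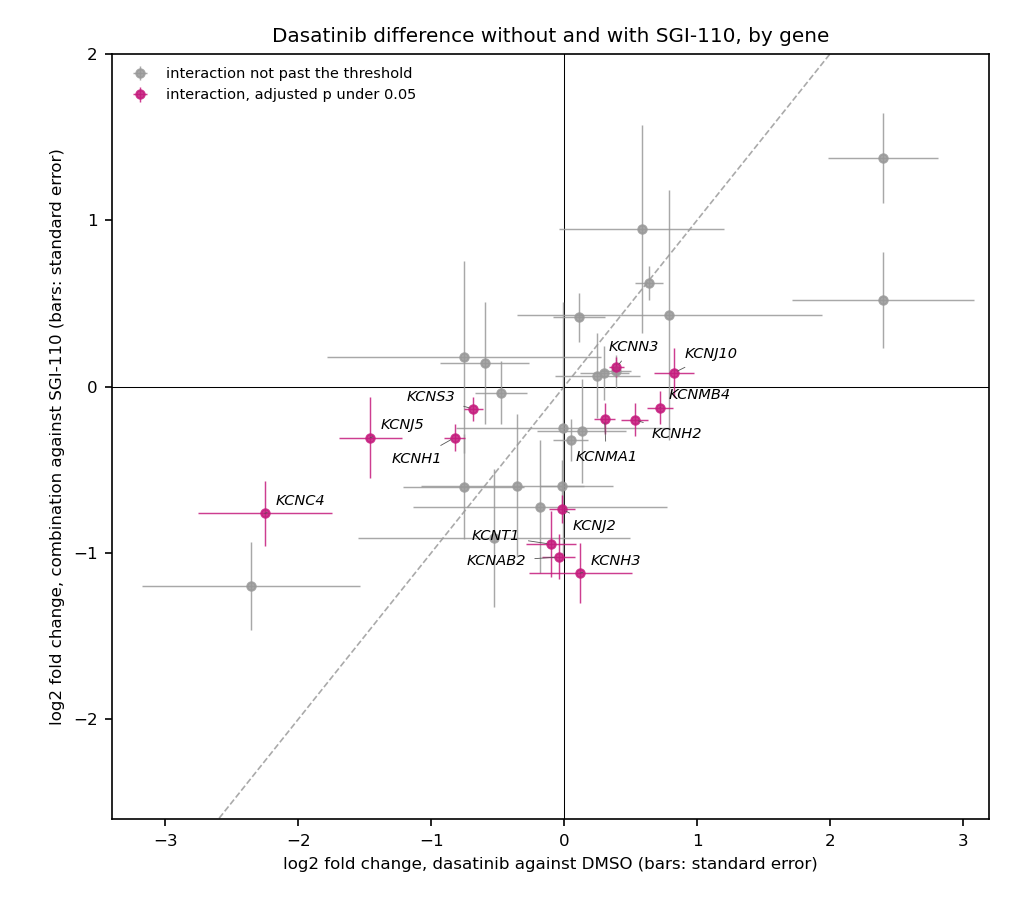
Log2 fold change of dasatinib against DMSO (horizontal) and of the combination against SGI-110 (vertical) for 34 genes measurable in all 4 treatments; bars are standard errors and the dashed line marks equality. The 13 pink points passed the interaction test at an adjusted p under 0.05; KCNJ2 lies at -0.01 and -0.74, and KCNJ5 at -1.46 and -0.31.

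Among 10 channel genes known from skeletal muscle, 7 rose and 3 fell with SGI-110, beside 30.4% and 17.1% of all genes tested. KCNJ2, KCNJ11, KCNJ12, KCNA7, KCNC4, KCNN4 and the accessory gene KCNE3 (10.3 to 24.6 counts, 1.25 ± 0.36 on the log2 scale) rose, and KCNMA1, KCNN3 and KCNH1 fell. With dasatinib alone 2 of the 10 rose and 3 fell, beside 17.8% and 13.2% of all genes. With dasatinib on top of SGI-110 5 of the 10 fell and the other 5 did not pass, beside 17.0% of all genes lower. Of 10 other genes of muscle excitability, for calcium, chloride and acetylcholine-gated channels, 3 rose and 3 fell with SGI-110, beside the same shares of all genes, and 6 of the 9 tested fell with dasatinib (66.7%). Of 19 genes for sodium-potassium pump subunits and cation-chloride cotransporters, 5 rose and 4 fell with SGI-110 (26.3% and 21.1%), near those shares, and 2 rose and 5 fell of the 17 tested with dasatinib (11.8% and 29.4%). Of 15 genes for channel partners and related channels outside the KCN symbols, 7 rose and 3 fell of the 14 tested with SGI-110, beside 30.4% and 17.1% of all genes. AMIGO1, a partner of voltage-gated channels, rose from 4.33 to 246 counts.

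KCNQ1 lies in an imprinted domain in which the RNA KCNQ1OT1 is read antisense from within the gene and silences neighbours on the paternal copy. KCNQ1 was under 1 count with DMSO and dasatinib and at 2.57 and 2.03 counts with SGI-110 and the combination, and it passed in none of the 4 deposited comparisons. KCNQ1OT1 fell by 0.96 on the log2 scale with SGI-110 and by 1.04 with dasatinib, at adjusted p of 0.0319 and 0.0269 in the authors' deposited table, and no level was solved for it. Of 10 genes of the domain in the tables, 4 rose and 1 fell with SGI-110, which at this number is near the 30.4% and 17.1% of all genes. CDKN1C, an inhibitor of cell division, went from under 1 to 65.5 counts, PHLDA2 from under 1 to 70.0, SLC22A18 from under 1 to 9.03 and CD81 from 2268 to 2787. NAP1L4, TSSC4 and OSBPL5 did not pass, with log2 fold changes of -0.02, -0.19 and -0.14, and SLC22A18AS was under 1 count in every treatment.

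Genes that mark other cell types rose with SGI-110 in the same libraries. Against DMSO, 5 of 5 germ cell, 5 of 5 epithelial, 5 of 5 endothelial, 5 of 5 smooth muscle, 4 of 4 blood and 5 of 8 neuronal markers rose, beside 30.4% of all genes. The summed level of the germ cell markers was 11.97 counts with DMSO, 4794 with SGI-110, 23.7 under dasatinib and 3978 under both agents. In the same order the neuronal markers summed to 1055, 1052, 589 and 816 counts, and the epithelial ones to 123, 1150.0, 88.8 and 606. Only the neuronal sum was not higher with SGI-110 among these 3. Most of that sum in DMSO was SYT1, the 1 neuronal marker that fell, from 719 to 287 counts, while 5 of the 8 rose. From DMSO to SGI-110 the endothelial sum went from 605 to 1975 counts, the smooth muscle sum from 645 to 1711 and the blood sum from 5.65 to 54.7. Markers under 1 count with DMSO included DAZL and DDX4, SNAP25 and SYN1, CDH1 and EPCAM, CDH5 and KDR, ACTA2 and MYH11, and PTPRC and CD3E. Other markers of the same lists were well above 1 count with DMSO, among them PECAM1 at 557, SMTN at 553, GAD1 at 207 and CLDN4 at 123. Of 7 skeletal muscle markers 4 rose and 1 fell. MYF6 and PAX7 were also under 1 count with DMSO, and they reached 165 and 6.06 with SGI-110. MYOG and DES stood at 3231 and 9378 counts with DMSO and at 4431 and 7645 with SGI-110. The part of these markers in the channel results was not tested. Of the DNA methyltransferases, DNMT1 had a log2 fold change of -0.32 with SGI-110, DNMT3A one of 0.15 and DNMT3B one of 1.63.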

How the data were processed

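RNA-seq libraries of Rh30 and RD cells were compared by the authors in 4 deposited tables: each of the 3 treatments against DMSO, and both agents against SGI-110. Per the file headers, the authors give for each gene a signal (the mean normalised count over libraries), the log2 standard error, a score (the Wald statistic), a p-value and an adjusted p-value. Per the submitters' processing notes, Trim Galore 0.4.2, HISAT2 2.1.0, featureCounts 1.5.1, DESeq and DESeq2 1.16.1 were used with GRCh38; the sources used here do not give the model, the filters or the strand setting. The deposited mean is the same in all 4 tables. The log2 fold change was computed here as statistic times standard error.

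Levels per treatment were solved from the standard errors and fold changes (29342 of 29639 genes, median misfit 0.0927%), a method added after seeing the data. For 99.53% of 16537 genes the mean of the 4 levels was at most 2.02 times the mean over 24 libraries, hence 12 compared libraries. The combination against dasatinib and the interaction were Wald tests (two-sided) with Benjamini-Hochberg adjustment over 29639 genes. Only the solved levels and the interaction were tried on simulated data, for genes measurable in every treatment, and no outcome is given here. The combination against dasatinib and genes under the measurable level were not checked in this way. The threshold was an adjusted p of 0.05. Depth per library is unknown, and no interval from counts is given.

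The genes and lists were chosen with earlier results of these data known. Named for each deposited comparison were, among genes past the threshold, the 10 largest rises and 10 largest falls measurable in both groups, and the 5 smallest adjusted p with 1 group under 1 count. The 10 highest means, every interaction past the threshold, and the muscle and KCNQ1 lists were named too; some genes are counted but not named, plotted or otherwise reported here. Alternatives were other thresholds, count filters, adjustment without the authors' filter and the sum of squared errors. Exon overlaps used GENCODE release 29 and promoter windows RefSeq. Python 3.11.15, numpy 2.4.6, pandas 2.3.3, scipy 1.17.1 and matplotlib 3.10.9 were used.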

Additional observations from a re-analysis of the deposited data

Results flagged for a closer look

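The dasatinib difference depended on SGI-110 in 15 potassium channel genes by the Wald test of the interaction, adjusted over all 29639 genes. Each value is the dasatinib difference with SGI-110 minus that without it, on the log2 scale, from 3 libraries in each of 4 treatments. Among those below 0 were KCNG4 (-3.13, with a DMSO group under 1 count), KCNH3 (-1.24), KCNAB2 (-0.98), KCNT1 (-0.85), KCNMB4 (-0.85), KCNJ10 (-0.74), KCNH2 (-0.73), KCNJ2 (-0.73), KCNMA1 (-0.50) and KCNN3 (-0.28). Above 0 were KCNH1 (0.52), KCNS3 (0.55), KCNJ5 (1.15) and KCNC4 (1.49, with 3.21 counts under dasatinib). Of the 37 genes measurable in all 4 treatments, 67.6% had an interaction below 0, against 51.9% of 19187 genes. Single libraries could not be screened for outlying values, because the tables hold none.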

How the results depend on the processing

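No paired analysis was possible because the tables hold no value per library, and leaving out single libraries was not run for the same reason. Promoter CG content by call was not compared, since only 64 of the 84 genes (76.2%) have a window and 80% were required. The alternatives tried left each log2 fold change as it was, so the direction of a single gene could not reverse. At a mean normalised count of at least 50, the genes past the threshold numbered 20 for SGI-110 against DMSO (56 in all), 17 for the combination against DMSO (46), 13 for the combination against SGI-110 (20) and 18 for the combination against dasatinib (43), and the median log2 fold changes became 0.43 for SGI-110 and 0.23 for the combination against DMSO. Keeping only genes measurable in the groups compared left 30, 24 and 25 for SGI-110 and both agents against DMSO and for the combination against dasatinib. With a log2 fold change of at least 1 there were 6 for dasatinib against DMSO (16), 12 for the combination against SGI-110 and 5 interactions (15). Each of these alternatives keeps fewer genes by construction. For the combination against dasatinib, adding both squared standard errors counts the shared DMSO variance, which cancels in that difference. This sum left 25 of the 43, and KCNH2 and KCNH1 were among the 18 that no longer passed. Leaving out genes that share exon bases, an alternative chosen after seeing the data, left 49, 15, 39 and 14 in the 4 deposited comparisons. Genes at low counts had wide errors, and differences in them were often not detectable.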
